A study of Mus musculus with 50 samples.

Results

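Isolated CpGs are cytosine-guanine pairs with no other CpG within 100 bp, and 2500 of the 205304 CpGs measured here (1.22%) were of this kind. They were chosen by the number of CpGs that the deposited table gives for the cluster a CpG belongs to. That number is 1 for these and more for all others, so no methylation level entered the rule. The rule itself was chosen with earlier results of these data known. Of the 2500, 102 lay in the promoter of a gene (42 of these also in a gene body), 951 in a gene body but not in a promoter, and 1447 in neither. The genome sequence bore the label out: in GRCm38, the assembly also called mm10, all 2500 had no other CG within 100 bp, and the nearest one was 102 to 340 bp away (median 119 bp).

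Vertebrate genomes have lost most of their CpGs, and those that remain fall into dense islands that are largely free of methylation and a thinly spread majority that is largely methylated. DNMT3A and DNMT3B place methyl groups on unmethylated CpGs (de novo methylation), whereas DNMT1 copies the pattern to the new strand after replication. Bisulfite sequencing reads 5-hydroxymethylcytosine as methylated too.

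Soleus muscle, which is slow and oxidative, was taken from male and female C57BL/6 mice aged 12 weeks, and 1 muscle gave 1 sample. WT mice carried Dnmt3a flox/flox alleles, with LoxP sites around exon 19, and no Cre. The mD3AKO mice carried the same flox/flox alleles and a Cre transgene under the muscle creatine kinase promoter (mCK-Cre), which turns on late in muscle differentiation, so that satellite cells and the vessel, blood, nerve and connective tissue cells of the muscle are likely to keep Dnmt3a, which was not measured here. Mice were killed at rest after a sham treadmill session or at 10, 30 or 60 min after 30 min of treadmill running. In time order from rest, the table held 5, 5, 5 and 6 WT samples and 5, 5, 7 and 6 mD3AKO samples. The assay was RRBS, bisulfite sequencing of a reduced representation of the genome, for which DNA is cut with MspI at CCGG and short fragments are sequenced from their ends. The values are counts of methylated and unmethylated calls per CpG, and the methylation level is the methylated share of the calls in percent. Each isolated CpG had 8 to 1817 calls in a sample, and the 2500 together had 130168 to 442566 calls per sample (median 226070). No isolated CpG lay in the promoter or body of Dnmt3a, and methylation calls do not show whether the exon was deleted.

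Isolated CpGs were almost without exception the MspI cut site itself. Of the 2500, 2495 (99.8%) lay within CCGG, against 28.7% of the 202804 clustered CpGs. The other 5 lay 114 to 793 bp from the nearest CCGG. The shorter of the MspI fragments that met at an isolated CpG was 102 bp long at least and 130 bp at the median, and for 99.3% it was at most 300 bp. Where that fragment ran to the right, 1437 of 1445 CpGs were listed at their C, and where it ran to the left, 957 of 1055 were listed at their G, which in each case is the cytosine at the 5′ end of a read into the fragment. GRCm38 holds 20383623 CGs on the 19 autosomes, and 16.4% of them have no other CG within 100 bp, against 1.22% of those in the table. The sequences shown here are of the isolated CpGs with the lowest p-values among those that passed the genotype test, 1 in a promoter, 2 in gene bodies and 1 in neither, because the falls described further on are at these sites. Each is the forward strand of GRCm38, 202 bases long, with the lone CG in capitals at base 101, and each has the MspI site ccgg around it.
Tiparp promoter, chr3:65526780-65526981: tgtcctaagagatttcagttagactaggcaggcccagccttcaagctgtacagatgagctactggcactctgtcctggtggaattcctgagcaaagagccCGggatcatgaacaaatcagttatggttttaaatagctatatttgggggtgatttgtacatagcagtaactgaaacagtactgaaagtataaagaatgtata
Gm20388 intron, chr8:120151435-120151636: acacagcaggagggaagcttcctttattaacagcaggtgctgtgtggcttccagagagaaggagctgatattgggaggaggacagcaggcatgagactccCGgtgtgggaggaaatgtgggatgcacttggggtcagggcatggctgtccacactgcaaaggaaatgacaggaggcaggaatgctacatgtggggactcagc
Clec16a intron, chr16:10650397-10650598: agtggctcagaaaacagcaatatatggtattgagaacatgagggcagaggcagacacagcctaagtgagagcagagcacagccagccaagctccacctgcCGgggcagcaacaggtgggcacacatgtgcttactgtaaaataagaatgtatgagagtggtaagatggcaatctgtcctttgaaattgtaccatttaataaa
Far from Sox4, chr13:28660287-28660488: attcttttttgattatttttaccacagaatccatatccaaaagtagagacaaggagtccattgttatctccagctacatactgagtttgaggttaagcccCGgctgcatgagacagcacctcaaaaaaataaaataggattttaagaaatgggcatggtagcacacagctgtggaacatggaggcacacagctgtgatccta

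Their surroundings were poor in G and C. The mean GC content of the 202 bp window was 44.6% around isolated CpGs and 60.1% around clustered ones. Repeats, soft-masked in the assembly, held 739 isolated CpGs (29.6%) and 8.63% of clustered CpGs. By the GENCODE annotation 1055 isolated CpGs lay in introns, 83 in exons, 47 in untranslated regions and 1315 between genes. They lay on all 19 autosomes, with 79 to 190 on each, and the median distance to the next CpG of the table was 12661 bp. Gene bodies of 864 genes held one, 101 of these genes held more, and Dlgap1 and Ptprd, named because they held the most, had 5 each.

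Isolated CpGs were largely methylated. Their median level over the 44 samples was 75.6%, with quartiles of 52.5% and 87.2%, whereas the median of the clustered CpGs was 1.72%. Only 182 isolated CpGs (7.28%) were below 20%, while 1290 lay between 20% and 80% and 1028 (41.1%) at 80% or above. Clustered CpGs that also lay within CCGG had a median of 22.6%, and 48.7% of them were below 20%. High methylation was shared with CpGs that had few neighbors: the mean level was 67.2% at isolated CpGs, 63.1% in clusters of 2 CpGs, 62.4% in clusters of 3 and 60.8% to 61.7% in clusters of 4 to 7. In all 44 samples the mean level of isolated CpGs was above that of clustered CpGs. These are levels of different loci read with the same libraries, so the samples show only that the order did not depend on 1 library.

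**Figure D1:**
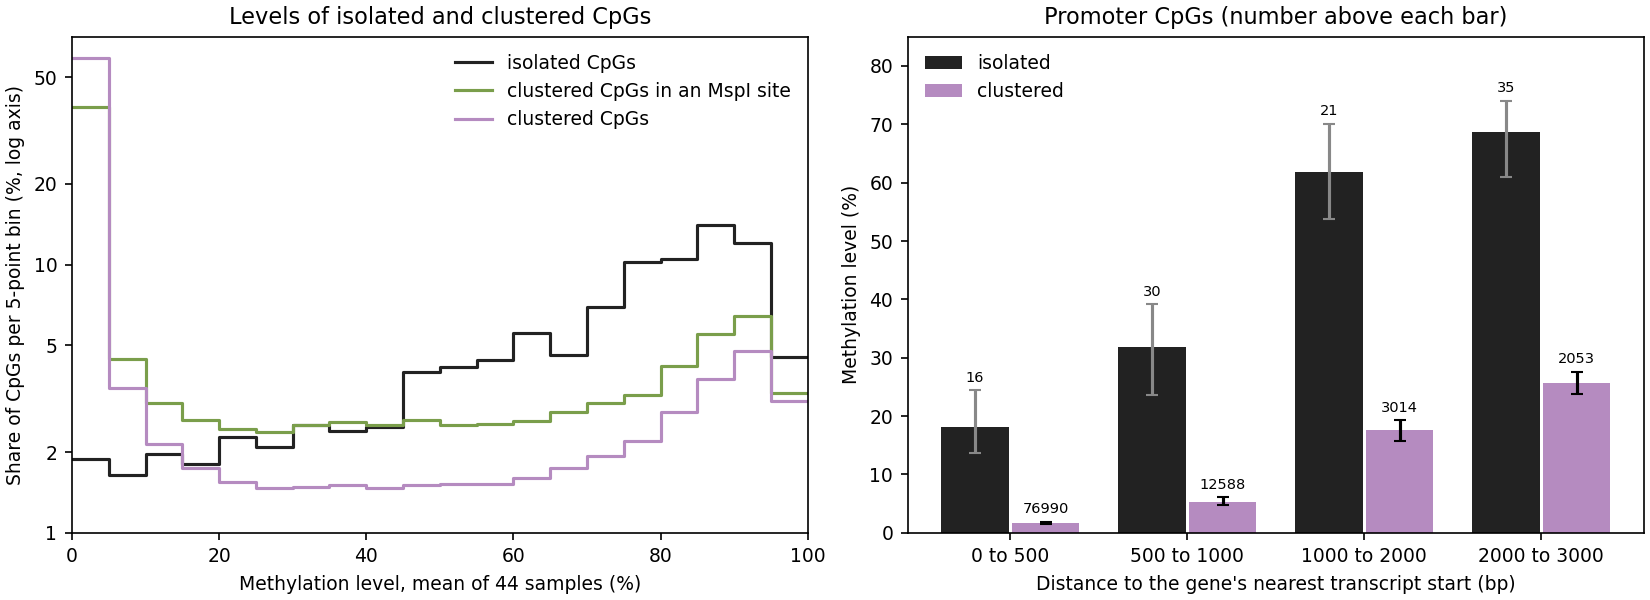
Left, the share of CpGs (percent, log axis) in each 5-point bin of methylation level (mean of 44 samples), for isolated CpGs, clustered CpGs within an MspI site and all clustered CpGs. Right, the mean level of promoter CpGs by distance to the gene's nearest transcript start, with whiskers from the lowest to the highest of 44 samples. Isolated promoter CpGs ran from 18.2% within 500 bp to 68.8% at 2000 to 3000 bp, above clustered promoter CpGs in each bin.

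Promoters were where the isolated CpGs differed most among themselves. Of the 102 in promoters (from 3000 bp before to 1000 bp after a transcript start), 30 were below 20%, 44 lay between 20% and 80% and 28 were at 80% or above. Their mean level was 48.8% ± 2.62 in WT (SD, n = 21) and 48.3% ± 2.68 in mD3AKO (SD, n = 23), while clustered promoter CpGs averaged 3.40% and 3.15%. Levels rose with distance from the start. The 16 within 500 bp of a transcript start of their gene averaged 18.2% (13.6% to 24.4% over samples), and 12 of the 16 were below 20%. The 30 at 500 to 1000 bp averaged 31.9%, the 21 at 1000 to 2000 bp 61.8%, and the 35 at 2000 to 3000 bp 68.8%. Clustered promoter CpGs in the same bins averaged 1.76%, 5.36%, 17.6% and 25.6%. The order of isolated over clustered promoter CpGs held in all 44 samples for the whole class.

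Levels in gene bodies and elsewhere were closer to each other. In gene bodies the mean level was 66.2% ± 2.67 in WT and 64.4% ± 2.53 in mD3AKO, and among CpGs in neither 70.3% ± 2.45 and 69.3% ± 2.02. Over all isolated CpGs the level rose with distance from the nearest start of a protein-coding gene, from 25.1% within 1 kb (44 CpGs) to 61.9% at 3 to 10 kb (253), 64.8% at 10 to 50 kb (741), 69.5% at 50 to 200 kb (700) and 73.7% beyond 200 kb (654). CpGs in repeats averaged 77.0% and the other 1761 averaged 63.1%. Exons (70.9%), untranslated regions (67.9%), introns (64.4%) and intergenic DNA (69.2%) spanned a narrower range. By the bases next to CCGG, with a context and its reverse complement counted together, the 24 CpGs with G before and C after had the lowest mean, 41.0%, and the other contexts ran from 61.7% to 70.9%.

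A lone CpG varied widely from mouse to mouse. The SD within a group was 15.7 points of methylation at the median CpG (6.64 to 25.0 from the 5th to the 95th percentile), compared with 10.6 points for clustered CpGs within CCGG. These sets differ in level: among isolated CpGs the SD was 10.3 points for those below 20%, 19.0 points for those between 20% and 80% and 12.4 points for those at 80% or above. The spread was far above counting error: the chi-square of the calls within groups per degree of freedom was 10.8 at the median. The part of PCR copies in this spread was not tested. A genotype difference at 1 isolated CpG therefore had a standard error of 4.78 points at the median.

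The first comparison asked whether loss of DNMT3A in muscle lowered methylation at isolated CpGs. Their mean level was lower in mD3AKO by a small amount, and the samples of the genotypes overlapped. WT samples ranged from 62.6% to 71.4% with a mean of 67.9% ± 2.50 (SD, n = 21), and mD3AKO samples from 61.5% to 70.2% with a mean of 66.6% ± 2.21 (SD, n = 23). The ranges overlapped, with 5 WT samples above the highest mD3AKO sample and 1 mD3AKO sample below the lowest WT sample. The difference was -1.26 points ± 0.715 (SE), and 15 of 23 mD3AKO samples were below the WT mean. Over clustered CpGs it was -0.864 ± 0.219, with 21 of 23 below. Small clusters, whose levels were the closest to those of isolated CpGs, differed by -1.45 ± 0.656 (2 CpGs), -1.25 ± 0.613 (3 CpGs) and -1.73 to -2.01 (4 to 7 CpGs), so a fall of this size was not particular to isolated CpGs. In bulk muscle, a change in the level of every cell and a change in the mix of cells cannot be told apart.

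The difference was not the same in every class. In gene bodies it was -1.84 points ± 0.786, and 17 of 23 mD3AKO samples were below the WT mean. Among CpGs in neither it was -0.937 ± 0.681, with 15 of 23 below. In promoters it was -0.466 ± 0.799, with 10 of 23 below, and it was 0.404 in samples 1 to 25, -1.36 in samples 26 to 50 and -0.207 to -0.687 with any 1 sample left out. Clustered CpGs had the same order, -1.63 in gene bodies, -1.11 in neither and -0.247 in promoters. Whether the classes differ from each other was not tested. Taking each CpG on its own, 1453 of 2500 (58.1%) had a lower mean in mD3AKO, the median difference was -0.859 points, and 90% of the differences lay between -11.1 and 7.73 points. A mean fall of 10 points or more was seen at 177 isolated CpGs and a rise of that size at 52. The median standard error of such a difference was 4.78 points, and the same counts were not taken for clustered CpGs. For clustered CpGs the median difference was -0.100 points and 54.8% were lower.

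**Figure D2:**
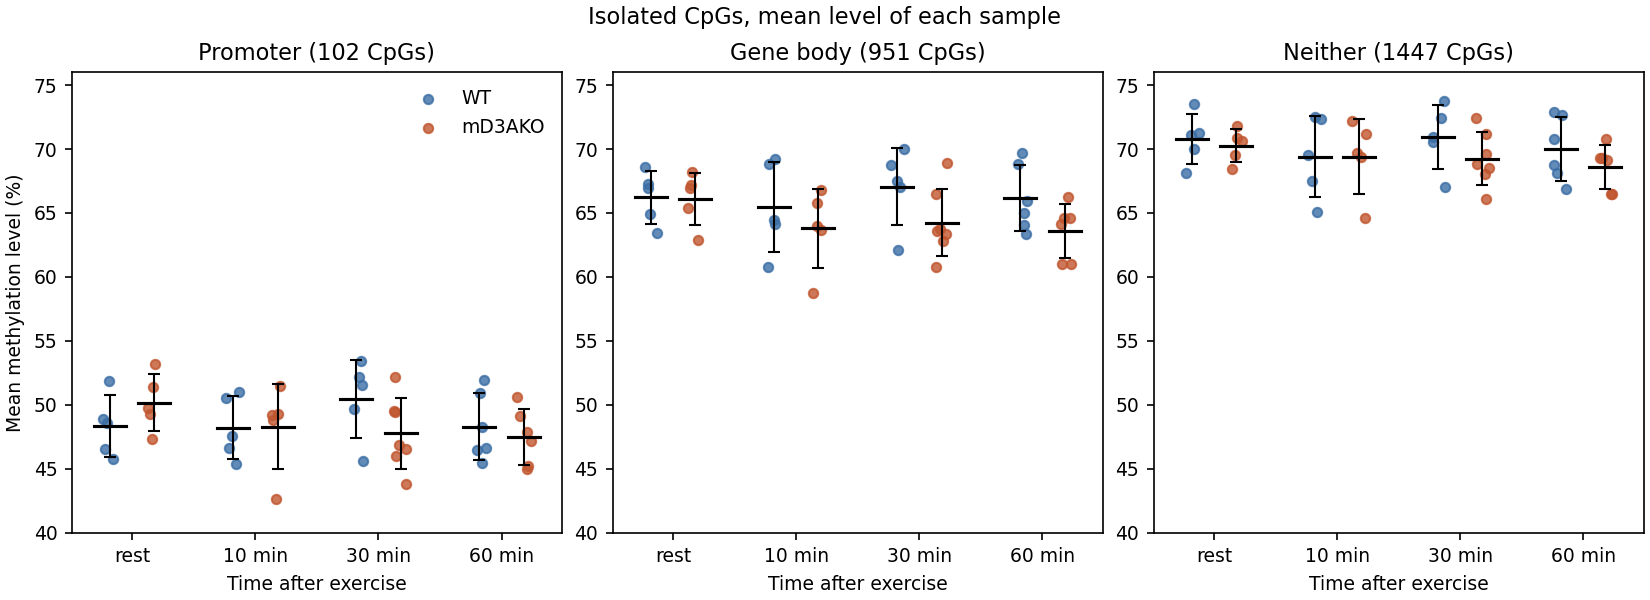
Mean methylation level (percent) of the isolated CpGs of each class in each sample, by time and genotype. Points are samples, bars are means and whiskers 1 SD. The genotypes overlap in every class, and promoter CpGs (48.8% in WT) sit below gene body CpGs (66.2%) and CpGs in neither (70.3%).

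The difference varied with distance from genes, and whether the bins differ was not tested. Between 3 and 10 kb from a protein-coding gene start the difference was -2.27 points ± 0.680, and 20 of 23 mD3AKO samples lay below the WT mean, while between 10 and 50 kb it was -2.07 ± 0.816, with 19 of 23. At 50 to 200 kb it was -1.05 ± 0.740 and beyond 200 kb -0.197 ± 0.657, with 11 of 23 below. Within 1 kb, where 44 CpGs had a low level to begin with, it was 0.195 ± 0.971, and at 1 to 3 kb it was -1.77 ± 0.859. Repeats took 41.7% of the CpGs beyond 200 kb and 21.7% of those at 3 to 10 kb, and CpGs in repeats differed by -0.402 ± 0.593 against -1.62 ± 0.778 outside them. Outside repeats the difference beyond 200 kb was -0.964 ± 0.706, that at 3 to 10 kb -2.28 ± 0.760 and that within 1 kb -0.636 ± 0.922. Among CpGs with a mean level of 60% to 90%, it was -2.01 ± 0.578 at 3 to 10 kb and -0.0510 ± 0.715 beyond 200 kb. From 1 kb outward the intervals of 1 SE of neighbouring bins overlap, and the bins share their samples.

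**Figure D3:**
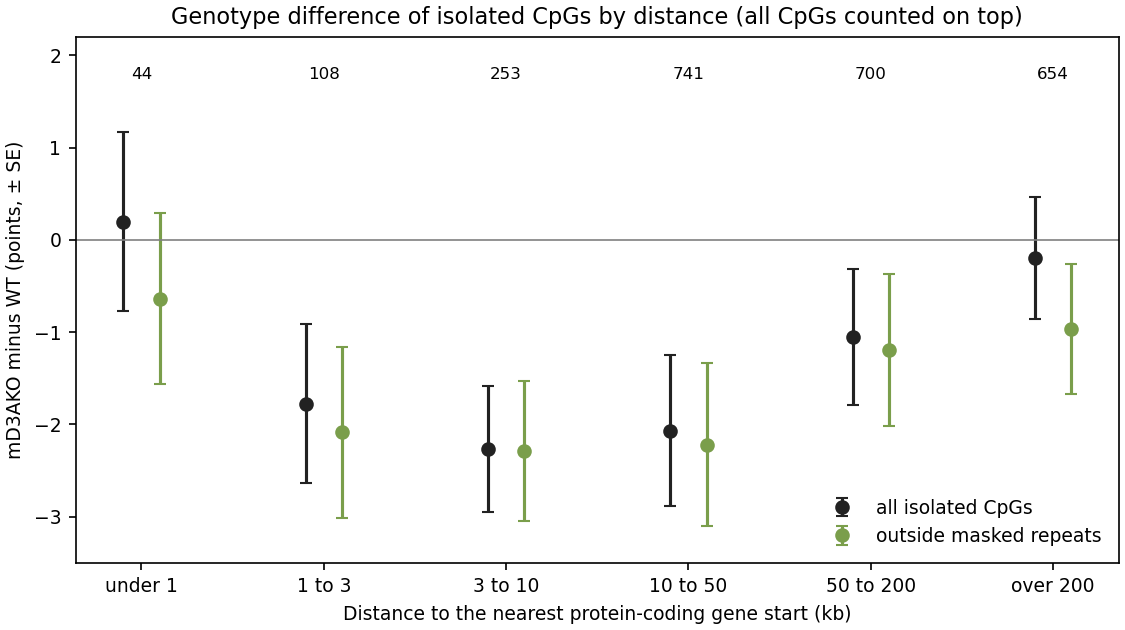
Genotype difference (mD3AKO minus WT, points of methylation, ± SE over 21 WT and 23 mD3AKO samples) of isolated CpGs by distance to the nearest start of a protein-coding gene, for all isolated CpGs and for those outside masked repeats. The lowest values are at 3 to 10 kb, -2.27 and -2.28 points, and the number of CpGs stands above each bin.

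The difference also varied with the mean level of the CpG, in no single order, and whether the bins differ was not tested. CpGs below 20% (182) differed by -1.67 points ± 0.674, and 18 of 23 mD3AKO samples lay below the mean of WT. Those at 20% to 40% differed by -2.84 points ± 1.32, those at 40% to 60% by -2.24 ± 1.34, those at 60% to 80% by -1.31 ± 0.895 and those at 80% to 90% by -0.331 ± 0.423. At 90% and above, where samples spread least, the difference was -0.618 ± 0.199 and 18 of 23 mD3AKO samples were below the WT mean. Introns differed by -1.73 ± 0.801 and intergenic CpGs by -0.894 ± 0.665. The 24 CpGs in the context of G before and C after CCGG differed by -4.60 ± 1.42, with 21 of 23 below, and the other contexts by -0.750 to -1.78. This small set had the largest difference of the contexts and also the lowest mean level, 41.0%. Whether it differs from CpGs of like level was not tested.

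Tested one by one, 12 isolated CpGs (0.48%) passed an adjusted p of 0.05 for the genotype effect in edgeR's quasi-likelihood test, and all 12 were lower in mD3AKO. Over all 51038 clusters tested together 1.09% passed, and 1.08% passed as lower, 553 clusters against 3 that were higher. By class, 1 of 102 promoter CpGs (0.98%), 9 of 951 gene body CpGs (0.946%) and 2 of 1447 CpGs in neither (0.138%) passed. Clusters of 2 to 3 CpGs passed in 0.435% of cases, those of 4 to 6 in 0.786% and those of 21 or more in 1.35%. Clusters of more than 1 CpG of which the table holds only 1 passed in 0.466%, close to the share of isolated CpGs. At an unadjusted p under 0.05 there were 160 isolated CpGs (6.40%) and 9.55% of all clusters. The likelihood ratio test called 42 isolated CpGs, a quasi-binomial model 33 and limma 23, all lower, where 2.77%, 2.54% and 1.75% of all clusters passed. With 1 sample of each group left out in turn, the count ran from 8 without WT 30 min sample 31 to 14 without WT 60 min sample 4. The share of all clusters was not counted in these fits, so these counts cannot be set against it.

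The 12 fell by 14.9 to 29.5 points, with a median of -21.6. Their WT means had a median of 67.5% and their mD3AKO means a median of 43.2%. All 12 had a lower mD3AKO mean at rest and at each of the 3 times after exercise. At each CpG 20 to 23 of 23 mD3AKO samples were below the WT mean, yet the ranges of the genotypes overlapped at all 12. At Abhd17a the rest means were 19.4% in WT and 15.6% in mD3AKO. There WT rest sample 11 read 52% and the other WT rest samples 4.76% to 17.4%, within the mD3AKO rest range of 0% to 29.4%. The 12 were picked by a test on these same samples, so the size and direction of the falls follow in part from the choice. In all, 11 lay in introns and 1 between genes, none in an exon or untranslated region, and 1 in a repeat. Of all isolated CpGs, 42.2% lay in introns, 52.6% between genes, 3.32% in exons, 1.88% in untranslated regions and 29.6% in repeats. Whether the 12 differ from these shares was not tested. The likelihood ratio test and limma also called all 12 and the quasi-binomial model 11. Fitted among 205304 single CpGs, of which 0.283% passed, 3 of the 12 passed. With at least 20 calls in every sample, 3 of 882 isolated CpGs passed, against 1.53% of all clusters. With sex in the model 13 passed (1.11% of all clusters), and without samples 32 and 42 again 12 (1.17%). In samples 1 to 25 alone none passed in edgeR (106 at an unadjusted p under 0.05, 0.049% of all clusters passed), nor in samples 26 to 50 (138, 0.0647%). The counts at an unadjusted p were 4.24% and 5.52% of isolated CpGs, against 6.49% and 6.78% of all clusters.

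**Figure D4:**
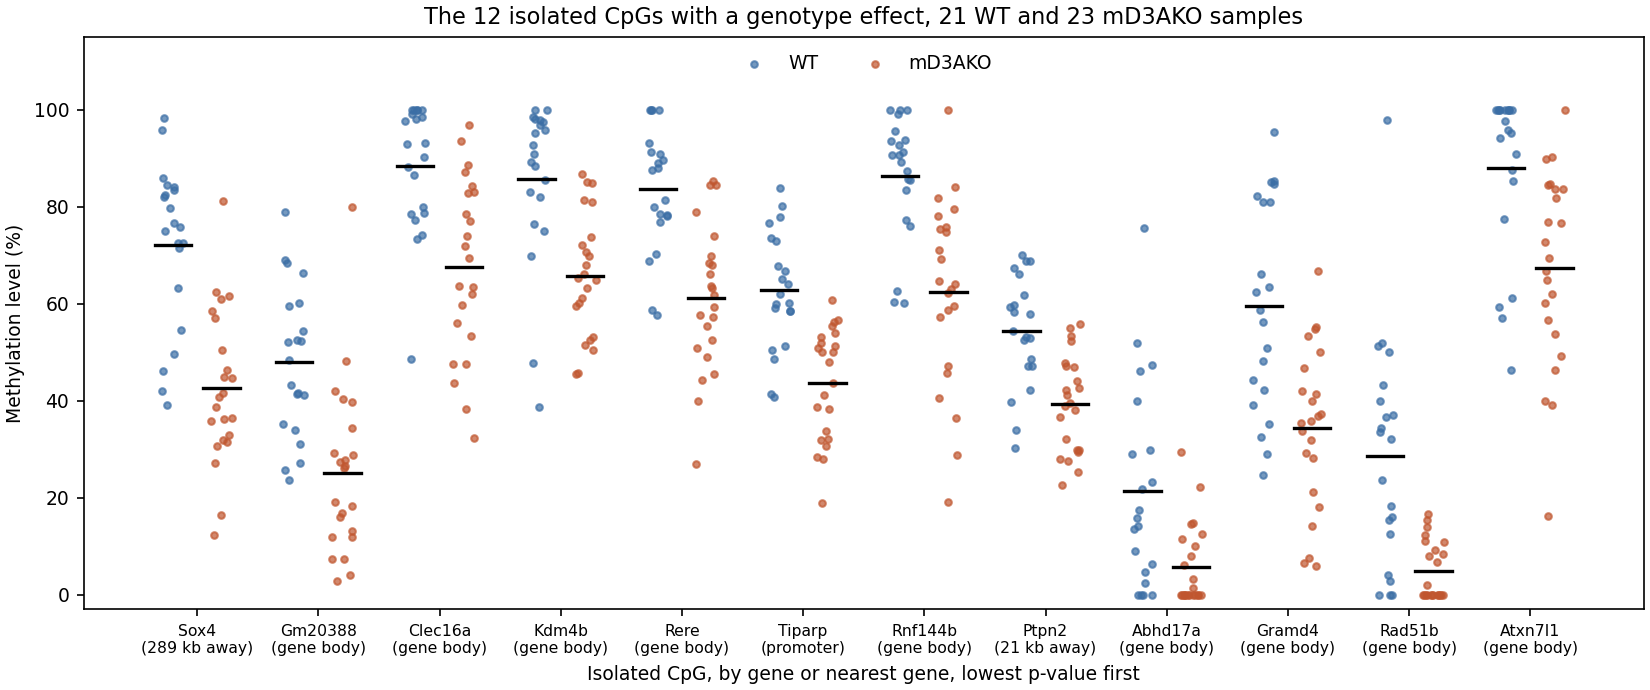
Methylation level (percent) in each of 21 WT and 23 mD3AKO samples at the 12 isolated CpGs that passed the genotype test, ordered by p-value. Each is marked with its gene or nearest gene, and black bars are genotype means. Points of the genotypes overlap at all 12, and the falls run from 14.9 to 29.5 points.

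The largest fall was at a CpG in neither a promoter nor a gene body of the table, at chr13:28660387-28660388, in an intron of the long non-coding gene 2610307P16Rik. The nearest protein-coding gene, 288532 bp away, was Sox4, which encodes an HMG-box transcription factor of progenitor cells. WT samples ran from 39.2% to 98.2% (median 75.9%) and mD3AKO samples from 12.3% to 81.2% (median 40.7%), with 16 to 276 calls per sample. At rest the 5 WT samples read 76.5%, 42.1%, 98.2%, 72.5% and 49.6%, and the 5 mD3AKO samples 36.5%, 41.6%, 40.7%, 50.4% and 31.6%. At rest 3 WT samples were above every mD3AKO sample and the other 2 fell within their range. The means were 72.1% ± 16.9 and 42.6% ± 15.9 (SD), a log2 odds ratio of -1.98 ± 0.40 (SE) with an edgeR adjusted p of 0.00420. The CpG at the other end of the same 107 bp fragment, in a cluster of 5, was at 67.6% in WT and 36.9% in mD3AKO, and that cluster passed as well (edgeR adjusted p of 0.0115).

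The promoter CpG was that of Tiparp, at chr3:65526880-65526881, 1530 bp from the gene's start. Tiparp encodes a mono-ADP-ribosyltransferase that the aryl hydrocarbon receptor induces. WT samples ran from 40.8% to 83.8% (median 62.1%) and mD3AKO samples from 19.0% to 60.8% (median 48.0%). All 23 mD3AKO samples were below the WT mean, 9 were below every WT sample, and 11 WT samples were above every mD3AKO sample. With 52 to 560 calls per sample it was read more deeply than most of the 12. The fall was 19.1 points, a log2 odds ratio of -1.15 ± 0.26 (edgeR adjusted p of 0.0124). The next CpG of the table, 1019 bp away, was at 0.921% in WT and 1.53% in mD3AKO.

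Gene body CpGs made up most of the rest. The lowest p-value among them was at chr8:120151535-120151536 in an intron of the predicted gene Gm20388 that also lies in 6430548M08Rik, where WT samples ran from 23.7% to 78.8% (median 48.4%) and mD3AKO samples from 2.90% to 80% (median 26.1%). A single mD3AKO sample taken at 30 min gave the 80%, and 21 of 23 mD3AKO samples were below the WT mean. The fall was 22.7 points (log2 odds ratio of -1.85 ± 0.39, edgeR adjusted p of 0.00643). The other end of its 105 bp fragment went from 41.4% to 28.5% but did not pass (edgeR adjusted p of 0.352). Clec16a, which encodes a regulator of mitophagy, had a CpG at chr16:10650497-10650498 with a median of 92.9% in WT (48.6% to 100%) and 69.4% in mD3AKO (32.3% to 96.8%). Kdm4b, which encodes a histone H3 lysine 9 demethylase, had one at chr17:56364271-56364272 with 90.9% in WT (38.6% to 100%) and 65.2% in mD3AKO (45.5% to 86.8%). These falls had log2 odds ratios of -2.50 ± 0.55 and -2.29 ± 0.51 and edgeR adjusted p-values of 0.00947 and 0.0105.

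Rere encodes a transcriptional corepressor of the atrophin family. Its CpG at chr4:150430628-150430629 had a median of 87.5% in WT (57.6% to 100%) and 61.8% in mD3AKO (26.9% to 85.3%), and 9 mD3AKO samples were below every WT sample. Rnf144b encodes an E3 ubiquitin ligase, and its CpG at chr13:47222334-47222335 had a median of 90.6% in WT (60.2% to 100%) and 64.2% in mD3AKO (19.0% to 100%). The other end of that 120 bp fragment, in a cluster of 10 CpGs, was at 87.6% in WT and 83.8% in mD3AKO and did not pass (edgeR adjusted p of 0.883). Falls of 22.5 and 23.9 points had edgeR adjusted p-values of 0.0108 and 0.0145.

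Abhd17a, a depalmitoylating enzyme gene, stood at the low end. Its CpG at chr10:80589306-80589307, 1035 bp from the start of the gene, had a median of 15.8% in WT (0% to 75.5%) and 0% in mD3AKO (0% to 29.4%). The isolated CpG at the other end of the 140 bp fragment was at 3.97% and 2.79%. This call (edgeR adjusted p of 0.0356) was the one of the 12 that the quasi-binomial model did not make (adjusted p of 0.250), and its fewest calls in a sample were 8. Near Ptpn2, the gene of a tyrosine phosphatase that dampens cytokine and insulin signals, a CpG in a repeat at chr18:67745590-67745591, 20995 bp from the gene, had a median of 54.3% in WT (30.2% to 70.0%) and 39.6% in mD3AKO (22.6% to 55.8%). It had 98 to 851 calls per sample, the smallest fall of the 12 (14.9 points) and an edgeR adjusted p of 0.0274. The remaining 3 were gene body CpGs of Gramd4, Rad51b and Atxn7l1, with edgeR adjusted p-values of 0.0385, 0.0392 and 0.0476. Gramd4 went from a mean of 59.4% in WT (24.7% to 95.5%) to 34.5% in mD3AKO (5.88% to 66.7%). Rad51b went from 28.6% (0% to 97.9%) to 5.01% (0% to 16.7%, median 0%). Atxn7l1 went from 88.0% (46.4% to 100%) to 67.3% (16.3% to 100%), with as few as 8 calls in a sample.

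Of 13722 genes that the table names, 939 (6.84%) had an isolated CpG in the promoter or body, and the gene lists of muscle, of exercise and of other cells held few of them. No listed CpG passed, which at the share called over all isolated CpGs says little of these genes. Of 46 listed sarcomere and cytoskeleton genes 3 had one in the promoter or body, with differences of -2.58 points in Mybph, -2.64 in Actn3 and -3.73 in Ttn (titin). Of 25 muscle development factors 4 genes had 5 isolated CpGs. The lowest unadjusted p was in an intron of Nfix, a transcription factor of the fetal muscle programme, at 54.3% ± 19.9 in WT and 37.5% ± 15.7 in mD3AKO (SD, edgeR adjusted p of 0.227), and the intronic CpG of Casz1 went from 57.2% to 49.8% (edgeR adjusted p of 0.872). The other 3 differed by -2.15 points in Mef2d and by -5.14 and 2.63 in Prdm16. Excitation-contraction coupling and ion channel genes had 2, both in Kcnma1, with differences of -2.14 and 3.18 points. Genes of glucose use, AMPK and fat oxidation, the immediate early genes of exercise, the writers, readers and erasers of methylation, and the fibroblast genes had none. Genes of the other cells of muscle had few: 1 in Flt1 (endothelium, -7.39 points), 4 in the blood and immune genes Adgre1 and Itgam (-4.62 to 5.78 points), 1 in Pmp22 (Schwann cells, -7.73) and 1 in Lep (adipocytes, -3.26). None of these 7 passed. Over the 1052 isolated CpGs of promoters and gene bodies that were counted for this comparison, the median difference was -1.07 points and 10 passed.

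Nearby CpGs gave a view of how far a lone CpG speaks for its surroundings. For 279 fragments the table also held the CpG at the other end, 55 of them with isolated CpGs at both ends. Across these 279 pairs the levels had a Pearson r of 0.76 and a median absolute gap of 10.7 points, and the genotype differences had an r of 0.36. Both ends of a fragment were read in the same libraries, so these pairs are not independent. For 172 isolated CpGs with the next CpG of the table within 1000 bp on another fragment, r was 0.72 for levels and 0.15 for differences. For 671 with the next CpG at 1000 to 10000 bp, both were low, 0.13 and 0.12.

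The second question was whether exercise changed isolated CpGs. No isolated CpG passed for time over both genotypes in edgeR, and 0.0% of all clusters passed. At an unadjusted p under 0.05 in edgeR there were 72 isolated CpGs (2.88%), against 2.85% of all clusters. Both shares lay below the cut itself, so the edgeR test was strict here and its lack of calls does not show that nothing changed. The likelihood ratio test, the quasi-binomial model and limma also called none, where they called 0.0196%, 0.0% and 0.0% of all clusters. At an unadjusted p under 0.05 they gave 193 (7.72%), 116 (4.64%) and 131 (5.24%), against 6.44%, 5.33% and 4.66% of all clusters. In WT the mean level was 68.1% ± 1.95 at rest (SD, n = 5), then 67.0% ± 3.27 (10 min), 68.6% ± 2.70 (30 min) and 67.7% ± 2.50 (60 min). In mD3AKO it was 67.9% ± 1.61, 66.4% ± 2.99, 66.5% ± 2.30 and 65.8% ± 1.89. The largest difference from rest was -2.04 ± 1.06 points (SE), in mD3AKO at 60 min. Within each genotype no isolated CpG passed against rest at 10, 30 or 60 min in edgeR's quasi-likelihood test (0.0% of all clusters in each), where the likelihood ratio test called 2 in WT at 10 min (0.0157% of all clusters) and none elsewhere. The lowest p-values for time were at chr15:26920261-26920262, in a repeat 24681 bp from Fbxl7 (an F-box ubiquitin ligase gene), and at chr15:30005169-30005170, 167424 bp from Ctnnd2 (delta-catenin). The first had means of 96.2%, 79.6%, 96.4% and 84.3% in WT and 98.7%, 83.8%, 95.4% and 72.7% in mD3AKO, from rest to 60 min, with an unadjusted edgeR p of 0.00114. The second had 75.9%, 99.2%, 72.2% and 74.0% in WT and 92.6%, 82.9%, 82.8% and 71.5% in mD3AKO, with an unadjusted edgeR p of 0.00177. Both had an adjusted edgeR p of 1.

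Time was in part tied to the set of sample numbers. Every sample numbered from 1 to 25 belonged to rest or 60 min, and every sample from 26 to 50 to 10 or 30 min. A difference between 10 or 30 min and rest or 60 min therefore cannot be told apart from one between the sets, whereas 60 min against rest and 30 against 10 min lie within a set. The genotype difference in mean level was -1.12 points ± 0.888 within the first set and -1.39 ± 1.17 within the second. Male samples averaged 66.7% and female samples 67.8%, a difference of -1.13 ± 0.729, and both sexes were in every group.

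The third question was whether the genotype difference changed after exercise. The mean level differed by -0.272 points ± 1.13 at rest, -0.633 ± 1.98 after 10 min, -2.15 ± 1.49 after 30 min and -1.83 ± 1.28 after 60 min. In time order, promoter differences were 1.84 ± 1.46, 0.0767 ± 1.85, -2.70 ± 1.72 and -0.795 ± 1.39. Gene bodies gave -0.118 ± 1.30, -1.68 ± 2.11, -2.82 ± 1.68 and -2.55 ± 1.36. CpGs in neither gave -0.523 ± 1.05, 0.00613 ± 1.94, -1.67 ± 1.38 and -1.43 ± 1.24. Clustered CpGs gave -0.568 ± 0.436, -0.600 ± 0.492, -1.21 ± 0.492 and -1.04 ± 0.398. Lower values after 30 and 60 min were thus not particular to isolated CpGs. Rest and 30 min lie in different sets of sample numbers, so a change between them cannot be told apart from one between sets. No isolated CpG passed the interaction test in edgeR's quasi-likelihood fit, and 0.0% of all clusters passed. At an unadjusted p under 0.05 there were 57 (2.28%), against 2.73% of all clusters. The likelihood ratio test and limma called 1 each, the same CpG (0.0137% and 0.00196% of all clusters), and the quasi-binomial model none (0.0%). Single times gave few calls: at rest none (90 at an unadjusted p under 0.05, 0.00392% of all clusters passed), after 10 min 1 (109, 0.0137%), after 30 min none (89, 0.0176%) and after 60 min none (84, 0.00784%). The counts at an unadjusted p were 3.6%, 4.36%, 3.56% and 3.36% of isolated CpGs, against 4.69%, 5.12%, 5.13% and 5.23% of all clusters. The likelihood ratio test called 1, 4, 3 and 1 in that order, where 0.0568%, 0.129%, 0.261% and 0.157% of all clusters passed. The quasi-binomial model called 0, 0, 2 and 0 (0.00392%, 0.0157%, 0.31% and 0.0235%), and limma 0, 1, 0 and 1 (0.0216%, 0.0294%, 0.0568% and 0.0451%).

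The call at 10 min was at chr8:107266527-107266528, between genes and 26943 bp from Nfat5, the gene of a transcription factor of osmotic stress. At 10 min the 5 WT samples read 94.0%, 82.2%, 96.7%, 100% and 94.3%, and the 5 mD3AKO samples 45.5%, 41.1%, 62.1%, 63.2% and 42.5%. Every WT sample was above every mD3AKO sample, a difference of -42.6 points (edgeR adjusted p of 0.0246). The means were 73.7% ± 20.7 and 69.0% ± 11.7 at rest, 73.7% ± 5.65 and 57.7% ± 17.0 after 30 min, and after 60 min 61.4% ± 7.13 and 71.6% ± 16.5, so the groups overlapped and the order at 60 min was the opposite. Over all times it did not pass in the quasi-likelihood test (edgeR adjusted p of 0.0720) or the quasi-binomial model (0.0997), but passed in the likelihood ratio test (adjusted p of 0.0127) and in limma (0.0331). For the interaction it passed in none of them (quasi-likelihood unadjusted p of 0.000243, adjusted 1). The lowest p-value for the interaction was at chr16:53512669-53512670, in a repeat 1058595 bp from the nearest protein-coding gene, Alcam, which encodes a cell adhesion molecule. WT means were 61.9%, 96.4%, 59.7% and 98.6% and mD3AKO means 93.8%, 70.7%, 69.4% and 55.8% from rest to 60 min. At 60 min the 6 WT samples lay between 96.2% and 100% and the 6 mD3AKO samples between 41.7% and 85.7%. At rest the order was the opposite, with WT samples at 18.0% to 86.3% and mD3AKO samples at 90.4% to 97.6%. Every WT rest sample was thus below every mD3AKO rest sample, and the 18.0% was of 50 calls. Its quasi-likelihood adjusted p for the interaction in edgeR was 0.0821, and calls per sample ran from 11 to 125. This was the CpG that the likelihood ratio test (adjusted p of 6.8e-06) and limma (0.00484) called for the interaction and also for genotype at 60 min (0.000328 and 0.00949), while the quasi-binomial model gave an adjusted interaction p of 0.962.

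**Figure D5:**
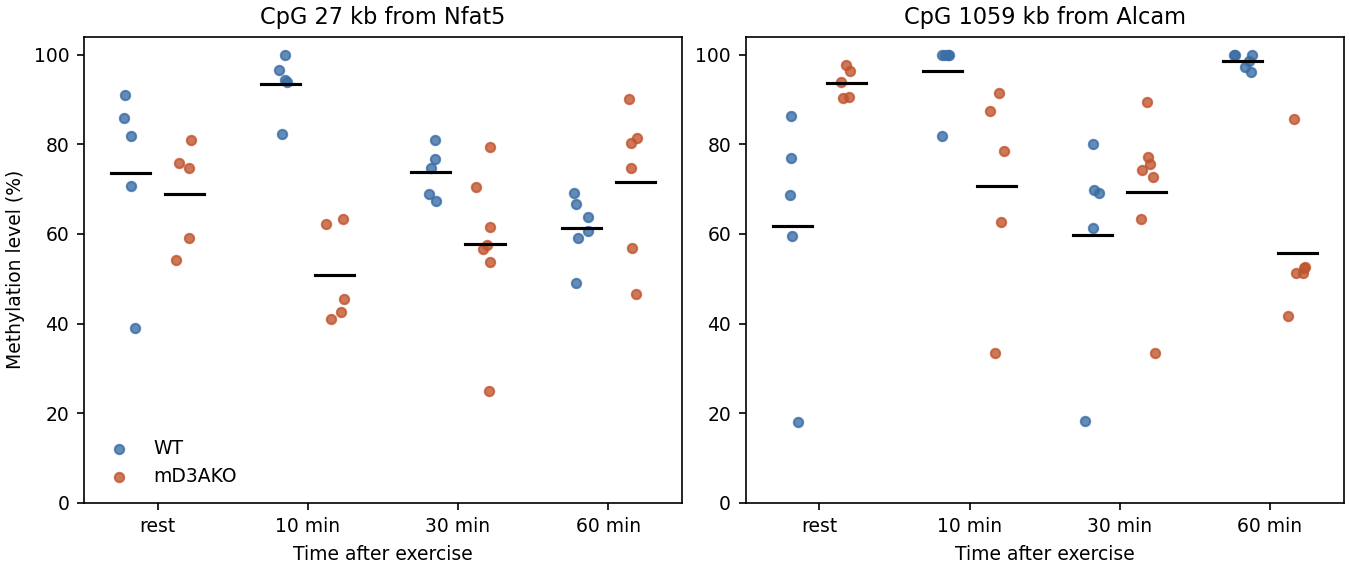
Methylation level (percent) of each sample at the isolated CpGs near Nfat5 and Alcam, by time and genotype, with bars at group means. Near Nfat5 the genotypes separate at 10 min, 82.2% to 100% in WT against 41.1% to 63.2% in mD3AKO, and overlap at the other times. Near Alcam the order of the genotypes turns between rest and 60 min.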

How the data were processed

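RRBS was performed by the study on soleus DNA, with 75 bp single-end reads. Per the labels and the study's methods, the authors trimmed reads with Trim Galore 0.4.0 and cutadapt 1.9.1 in RRBS mode, aligned them to mm10 with Bismark 0.18.1, summed both strands at each CpG, kept CpGs with at least 8 calls in every sample and left out sex chromosomes and samples with few reads. The deposited values are raw counts of methylated and of unmethylated calls. The clusters (CpGs at most 100 bp apart), promoters and gene bodies are the authors' assignments. Of 50 samples, 44 had columns, and 6 were not used here, of which 1 had labels that gave different genotypes.

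Positions were checked on GRCm38 and given as those of the C and G on the forward strand. Gene symbols (13708 of 13722 identifiers), exons and starts came from GENCODE M21, and sequences from the RefSeq copy of GRCm38. Counts were summed per cluster, an isolated CpG being a cluster of 1. The test was edgeR 4.0.16 (R 4.3.3), quasi-likelihood, with a coefficient per sample for coverage and a methylation term for each of 8 groups of genotype and time, over all 44 samples and all 51038 clusters, two-sided, with Benjamini-Hochberg adjustment and a threshold of 0.05. The common dispersion was used. The genotype contrast averaged the 4 mD3AKO groups and subtracted the average of the WT groups. Alternatives were the likelihood ratio test, a quasi-binomial model (pseudocount 0.5), limma 3.58.1 on log2 ratios (pseudocount 1), at least 20 calls in every sample, single CpGs, a sex term, and samples left out. Mean levels are unweighted means over CpGs and were not tested. The fits were tested on simulated data. Depth is given as calls per sample. RRBS calls carry no molecular identifiers, so they overstate independent molecules.

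CpGs were named by rule: those called lower by at least 10 points, up to 6 of lowest p in each class, any called higher, any in Dnmt3a, and for time and interaction the 2 of lowest p. The 3 called gene body CpGs beyond the 6, the listed genes given with values and the genes with most isolated CpGs were named after their values were seen. The isolated CpGs, gene lists and tests were chosen with earlier results of these data known. The study's methods count N as individual animals, so the spread is between animals.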

Additional observations from a re-analysis of the deposited data

Results flagged for a closer look

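Single samples stood apart from the rest of their group at 9 of 112 groups examined (14 measures in 8 groups), where chance alone gives about 5.6. WT rest sample 1 had 168013 calls on isolated CpGs against 220901 to 242457 in the other 4, and mD3AKO 60 min sample 17 had 430113 against 131361 to 238978. The other 7 were levels at CpGs of the genotype effect. At Gm20388 mD3AKO rest sample 2 was at 40.4% against 4.11% to 11.9% in the others. At Clec16a WT rest sample 20 was at 78.4% against 97.6% to 100%. At Kdm4b WT 60 min sample 22 was at 47.8% against 82.0% to 100%. At Rere mD3AKO rest sample 12 was at 26.9% against 57.3% to 68.4%. At Abhd17a WT rest sample 11 was at 52% against 4.76% to 17.4%. WT 60 min sample 4 stood apart at 2 of the CpGs, at Rnf144b with 60.4% against 90.6% to 95.7% and near Sox4 with 46.2% against 72.6% to 86.0%. What sets these samples apart was not tested.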

How the results depend on the processing

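The genotype count at isolated CpGs, 12 in edgeR's quasi-likelihood test, was 42 with the likelihood ratio test, 33 with the quasi-binomial model and 23 with limma, and 3 both at a minimum of 20 calls and in the fit of single CpGs. It was 0 in samples 1 to 25 and 0 in samples 26 to 50. At an unadjusted p under 0.05 there were 106 (4.24%) and 138 (5.52%), against 6.49% and 6.78% of all clusters. With 1 sample left out it ran from 8 to 14, and the share of all clusters was not counted there. The interaction, 0 in the main test, gave 1 with the likelihood ratio test and 1 with limma. At rest the likelihood ratio test gave 1 against 0. At 10 min, where the main count was 1, it gave 4 and the quasi-binomial model 0. At 30 min they gave 3 and 2 against 0, and at 60 min the likelihood ratio test and limma gave 1 each against 0. In WT at 10 min against rest the likelihood ratio test gave 2 against 0. At a minimum of 20 calls 9 of the 12 were not in the fit, having fewer calls in some sample, and the other 3 passed. The cause of the other changes was not tested. The mean genotype difference ran with any 1 of 44 samples left out from -1.52 to -1.03 points over all isolated CpGs, from -2.11 to -1.58 in gene bodies, from -1.20 to -0.721 in neither and from -0.687 to -0.207 in promoters. Without samples 32 and 42, both WT, the mean difference was -1.58 points over all isolated CpGs. By class it was then -2.17 in gene bodies, -1.25 in neither and -0.749 in promoters. Each of these lies below the range with 1 sample left out. In samples 1 to 25 the promoter difference was 0.404. All 2500 isolated CpGs also meet the definition on the genome sequence, so that alternative changed nothing. Leaving out single samples was run for the genotype test with 1 sample of each group, and was not run for time and interaction. Without samples 32 and 42 together both gave 0 in edgeR. At an unadjusted p under 0.05 there were 75 (3%) and 65 (2.6%), against 2.96% and 2.89% of all clusters. No paired analysis was possible because replicate numbers are sample numbers that no groups share. Few calls limit single CpGs: 882 of 2500 had at least 20 calls in every sample.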
